A study of Homo sapiens with 16 samples.

Results

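A set of 10 adhesion genes was followed over all conditions of the array experiment: CD44, the intercellular adhesion molecules ICAM1, ICAM2 and ICAM3, CD58, the integrin subunits ITGA4, ITGB1, ITGB7 and ITGAL, and SELPLG. They were chosen by name, with earlier results of these data known. They are 10 of the 20503 gene symbols that could be matched to the array, and 15 of the 50599 gene probes map to them. Of the genes, 4 have more than 1 probe, and all 15 probes passed the filter on low signal. The study transduced LP-1, a human multiple myeloma cell line, with a lentiviral vector that carried cIAP2 and eGFP (LP-1-cIAP2-eGFP) or eGFP alone (LP-1-eGFP, the control). Cells of each line were left untreated or received the proteasome inhibitor bortezomib at 10 nM, and total RNA was taken at 6 h and at 24 h. Each of the 8 resulting conditions had 2 biological replicates, so 16 arrays were analysed and their number limits the precision. Both lines share the parental cell line, the vector and eGFP, and each is 1 transduced culture, so a difference between the lines and a difference between 2 transduced cultures cannot be told apart.

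Malignant plasma cells lodge in the bone marrow by holding on to stromal cells, endothelium and matrix, and adhesion of this kind is known to protect them from drugs. CD44 binds hyaluronan. ICAM1, ICAM2 and ICAM3 are ligands of the integrin LFA-1, which ITGAL forms with ITGB2, and CD58 is the ligand of CD2 on T cells and NK cells. ITGA4 pairs with ITGB1 to bind VCAM1 and fibronectin and with ITGB7 to bind MAdCAM-1. SELPLG encodes PSGL-1, which binds selectins once it carries the right sugars and sulfates. ICAM1 is also a well-known target of NF-κB and of cytokine signalling.

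The promoter of ICAM1 is shown because ICAM1 differed most between the lines, and those of CD44 and ITGA4 because CD44 differed in the opposite direction and ITGA4 changed most with bortezomib. They come from RefSeq (build GRCh38.p14), run from 250 bases before to 50 bases after an annotated start, and all 3 lie on the plus strand. Of the 10 genes, 7 had such an entry, and ICAM2, ITGAL and SELPLG did not. Capitals mark 3 motifs that were looked for on both strands: GGAAATTCC, an NF-κB sequence, TTCCNGGAA, a palindrome of the kind found in cytokine-responsive promoters, and CCGCCC, the GC box. The motifs were picked after the sequences had been looked at.
ICAM1, chr19:10270870-10271169: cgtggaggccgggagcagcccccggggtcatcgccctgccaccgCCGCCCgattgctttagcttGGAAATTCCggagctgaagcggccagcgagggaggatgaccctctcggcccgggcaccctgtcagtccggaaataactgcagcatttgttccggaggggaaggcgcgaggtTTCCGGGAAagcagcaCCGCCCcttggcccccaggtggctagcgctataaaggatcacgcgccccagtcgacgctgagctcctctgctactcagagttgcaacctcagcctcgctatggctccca
CD44, chr11:35138921-35139220: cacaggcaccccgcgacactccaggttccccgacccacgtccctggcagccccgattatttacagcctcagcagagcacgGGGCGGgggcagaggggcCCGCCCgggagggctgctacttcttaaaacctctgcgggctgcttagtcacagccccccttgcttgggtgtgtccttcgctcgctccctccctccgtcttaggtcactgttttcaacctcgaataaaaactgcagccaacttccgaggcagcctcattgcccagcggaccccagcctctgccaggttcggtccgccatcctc
ITGA4, chr2:181457136-181457435: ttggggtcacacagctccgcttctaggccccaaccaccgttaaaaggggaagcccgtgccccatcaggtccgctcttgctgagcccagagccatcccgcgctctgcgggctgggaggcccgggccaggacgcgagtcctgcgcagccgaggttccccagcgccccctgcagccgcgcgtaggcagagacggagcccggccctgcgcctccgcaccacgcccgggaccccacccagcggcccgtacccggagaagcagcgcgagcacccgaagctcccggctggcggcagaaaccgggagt
In the window of ICAM1, GGAAATTCC begins at position -186 from the start and the match to TTCCNGGAA at position -75. Among all 35116 promoter entries, 0.461% held GGAAATTCC, 1.15% held TTCCNGGAA and 45% held CCGCCC. ICAM1 was the only one of the 7 genes with a match to GGAAATTCC or to TTCCNGGAA. CD44 held the GC box at 2 places, and the ITGA4 window held none of the 3 motifs, with 72.3% G and C. These matches describe the letters and are no evidence of binding.

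Signals are given as log2 of the background-corrected intensity after quantile normalization, and differences are differences of these log2 values, so that 1 stands for a doubling. A probe was called when limma's moderated test gave a Benjamini-Hochberg adjusted p under 0.05 over all probes tested. Where a gene had several probes, the one with the highest mean signal is reported first. One array of LP-1-cIAP2-eGFP after 24 h of bortezomib, replicate 1, stood apart from the others. Its median log2 signal before normalization was 3.18 and 35.5% of its probes were well above background, whereas the other 15 arrays had medians from 5.73 to 6.64 and between 49% and 71.1% of probes well above background. Without it, the calls given below for named genes of the wider adhesion lists, for the line difference, the 24 h change with bortezomib and the response difference of SPP1, were all kept.

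BIRC3, the gene of cIAP2, has 1 probe. By the study's methods this probe lies in the untranslated end of the transcript and reads the endogenous gene alone, so it is no check of the introduced sequence or of the labels. Its log2 signal was lower on the arrays labelled LP-1-cIAP2-eGFP, with 11.92 and 12.13 in untreated cells at 6 h against 13.57 and 13.67 on the arrays labelled LP-1-eGFP. The difference averaged over all conditions was -1.16 (SE 0.07, limma adjusted p = 7.42e-06). It was -1.57 in untreated cells, and -0.31 and not called after 24 h of bortezomib (limma adjusted p = 0.234). The directions below follow the array labels.

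The cells had the markers of plasma cells. SDC1, TNFRSF17, IRF4, XBP1, MZB1 and CD38 were well above background on all 16 arrays and PRDM1 on 15, with XBP1 the brightest of their probes (median log2 signal 17.14). Among markers of mature B cells, MS4A1 and PAX5 were well above background on no array. The stromal genes COL1A2 and PDGFRB and CSF1R, a gene of monocytes, were not well above background on any array, while COL1A1 was so on 10 arrays and the monocyte gene CD14 on 13. CD14 was highest on the array that stood apart, at 8.69 against 4.77 to 6.72 on the other 15, and the summed signal of CD14 and CSF1R was 425 there and 38.1 to 114 elsewhere. The T cell genes CD3E and CD3G lay near background (10 and 6 arrays), and CD2 was low apart from the array that stood apart, where its signal was 11.49 against 5.23 to 7.82 on the other 15. The summed signal of these 3 T cell genes was 2940 on that array, most of it from CD2, 128 on its replicate and 83.9 to 294 on all others, and the part of the T cell and monocyte signals in the results of that condition was not tested.

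**Figure D1:**
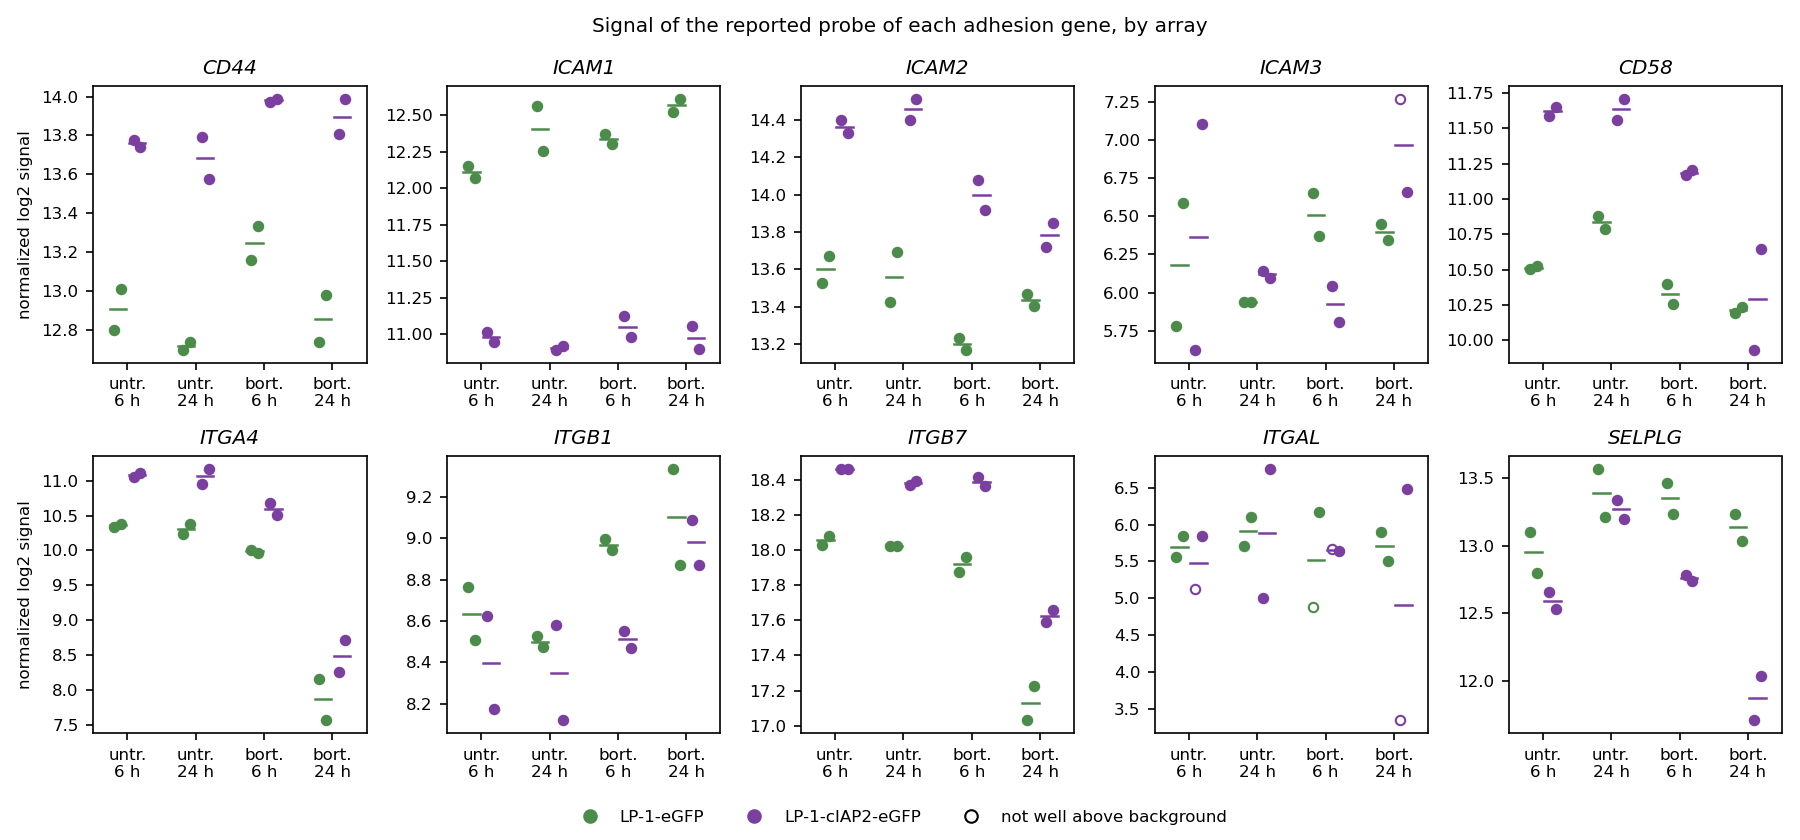
Normalized log2 signal (vertical axis) of the reported probe of each of the 10 genes in the 4 treatment and time conditions (horizontal axis) for arrays labelled LP-1-eGFP (green) and LP-1-cIAP2-eGFP (purple). Points are single arrays, bars are means of the 2 replicates and open points were not well above background. The arrays of CD44, ICAM1 and ICAM2 separate the lines in every condition, though the ICAM2 difference was not called after 24 h of bortezomib. ITGA4 and ITGB7 drop after 24 h of bortezomib in both lines.

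The comparison of the lines, averaged over treatment and time, asked which adhesion genes went with the cIAP2 label. On the arrays labelled LP-1-cIAP2-eGFP, 5 of the 10 genes were higher (CD44, ICAM2, CD58, ITGA4 and ITGB7), 2 were lower (ICAM1 and SELPLG), and ICAM3, ITGB1 and ITGAL did not pass the test. Of all probes tested, 16.1% were called in this comparison, 6.26% as higher and 9.84% as lower. From these arrays the study had already listed CD44 as up-regulated and ICAM1 as down-regulated in LP-1-cIAP2-eGFP, so the 10 genes are no unselected sample. The median of the 10 genes was 0.26 and that of all probes tested was -0.02. Under stricter limits, a limma adjusted p below 0.001 for the averaged difference together with more than 2-fold between untreated cells of the lines, ICAM1 was called lower and no gene of the 10 was called higher. These limits borrow cutoffs that the study used with other tests, so they do not repeat its selection of genes. They called 0.608% of all probes as higher and 1.76% as lower. In untreated cells alone, 6 of the 10 passed an adjusted p of 0.05, against 7.75% of all probes, and SELPLG was the one that no longer did.

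CD44, the hyaluronan receptor, lay between 13.58 and 13.99 on the 8 arrays labelled LP-1-cIAP2-eGFP, with a median log2 signal of 13.80. On the 8 arrays labelled LP-1-eGFP it lay between 12.70 and 13.34, with a median of 12.89. The lines did not overlap, and the difference was 0.90 (SE 0.08, 95% interval 0.73 to 1.07, limma adjusted p = 3.77e-05), or 1.86-fold. The highest condition mean was that of bortezomib at 6 h in both lines, 13.98 and 13.25. No change of CD44 with treatment or time passed the test. A second, dimmer CD44 probe, designed to another transcript entry, had a difference of 0.56 (SE 0.30, limma adjusted p = 0.272). Its arrays overlapped between the lines.

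ICAM1 lay in a narrow band on the arrays labelled LP-1-cIAP2-eGFP, from 10.89 to 11.12 with a median of 10.96. On the arrays labelled LP-1-eGFP it ranged from 12.07 to 12.61, with a median of 12.34. The ranges did not overlap, and the difference was -1.38 (SE 0.07, 95% interval -1.54 to -1.22, limma adjusted p = 1.70e-06), which is 2.60-fold lower on the arrays labelled LP-1-cIAP2-eGFP. In the RefSeq annotation ICAM1, ICAM4, ICAM5 and ICAM3 lie in this order on chromosome 19. ICAM5, which encodes telencephalin, was also lower in that line (-0.60, SE 0.13, limma adjusted p = 0.00978), a call lost with the slide as a block and with array weights, whereas ICAM3 had a difference of 0.09 (95% interval -0.40 to 0.57, limma adjusted p = 0.835).

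ICAM2 went the other way from ICAM1. Its log2 signal ranged from 13.72 to 14.51 (median 14.20) on the arrays labelled LP-1-cIAP2-eGFP and from 13.17 to 13.70 (median 13.45) on those labelled LP-1-eGFP. These ranges met almost edge to edge without overlapping, and the averaged difference was 0.70 (SE 0.07, limma adjusted p = 1.22e-04). It was 0.76 at 6 h and 0.90 at 24 h in untreated cells and 0.80 at 6 h of bortezomib. After 24 h of bortezomib it was 0.35 and not called (limma adjusted p = 0.178). ICAM3 was dim, at 5.62 to 7.27 and 5.78 to 6.65, with overlapping arrays, and was well above background on 15 of 16 arrays.

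CD58 in untreated cells at 6 h had signals of 11.59 and 11.65 on the arrays labelled LP-1-cIAP2-eGFP and of 10.50 and 10.53 on those labelled LP-1-eGFP. At 24 h in untreated cells the signals were 11.56 and 11.71 against 10.88 and 10.79. The lines were apart in both untreated conditions. They overlapped after 24 h of bortezomib, where the arrays labelled LP-1-cIAP2-eGFP had 9.93 and 10.65 and those labelled LP-1-eGFP 10.19 and 10.24. The overlap rests on the array that stood apart, at 9.93, and the difference in that condition was 0.08 with it and 0.43 (limma adjusted p = 0.0907) without it. The averaged difference was 0.71 (SE 0.10, limma adjusted p = 0.00109), and the second CD58 probe had 0.82 (limma adjusted p = 8.27e-05). With normexp background correction the reported probe had 0.47 and was no longer called (limma adjusted p = 0.295). The second probe separated the lines in all 4 conditions.

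Among the integrin subunits, ITGA4 differed by 0.68 (SE 0.11, limma adjusted p = 0.00204) and ITGB7 by 0.43 (SE 0.06, limma adjusted p = 9.13e-04), both higher on the arrays labelled LP-1-cIAP2-eGFP. In each of the 4 conditions both arrays of that line lay above both control arrays for these genes. The nearest ITGA4 arrays after 24 h of bortezomib were at 8.27 and 8.17. Within single conditions ITGA4 passed the test in none (limma adjusted p from 0.125 to 0.220). ITGB7 did so only after 24 h of bortezomib (0.50, limma adjusted p = 0.0423). The other ITGA4 probes had 0.55 (limma adjusted p = 0.0159) and 0.32 (limma adjusted p = 0.145), and each separated the lines in 3 of the 4 conditions. The ITGB7 call was lost when the arrays were scaled to their 75th percentile, where the difference was 0.34 (limma adjusted p = 0.0561). ITGB1, the other partner of ITGA4, had a difference of -0.24 (95% interval -0.49 to 0.01, limma adjusted p = 0.201).

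ITGAL was at the edge of detection. Its probe was well above background on 12 of 16 arrays, 5 labelled LP-1-cIAP2-eGFP and 7 labelled LP-1-eGFP, and its difference of -0.22 had a 95% interval from -1.24 to 0.79. ITGB2, the partner that ITGAL needs to form LFA-1, was well above background on 1 of 16 arrays and was not tested. ITGAE, the other partner of ITGB7, had a line difference of 0.01 (limma adjusted p = 0.975). ITGB2, ITGAE and the neighbours of ICAM1 were named for their place beside these genes, after their values were known.

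SELPLG was lower on the arrays labelled LP-1-cIAP2-eGFP by 0.58 on average (difference -0.58, SE 0.09, limma adjusted p = 0.00219), but unequally over the conditions. The difference was -0.36 at 6 h and -0.12 at 24 h in untreated cells. Under bortezomib it was -0.59 at 6 h and widened to -1.26 at 24 h. Of these 4, only the last passed the test (limma adjusted p = 0.00516). It was -1.10 (limma adjusted p = 0.0173) without the array that stood apart, and array weights ended the call (limma adjusted p = 0.426). Fitted on untreated arrays alone, the difference was -0.24 (limma adjusted p = 0.316). The second, dimmer SELPLG probe averaged -1.22 (limma adjusted p = 0.016). That average includes signals of 5.67 and 7.98 after 24 h of bortezomib on the arrays labelled LP-1-cIAP2-eGFP. The lower of them came from the array that stood apart, and 1 of these arrays was well above background.

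**Figure D2:**
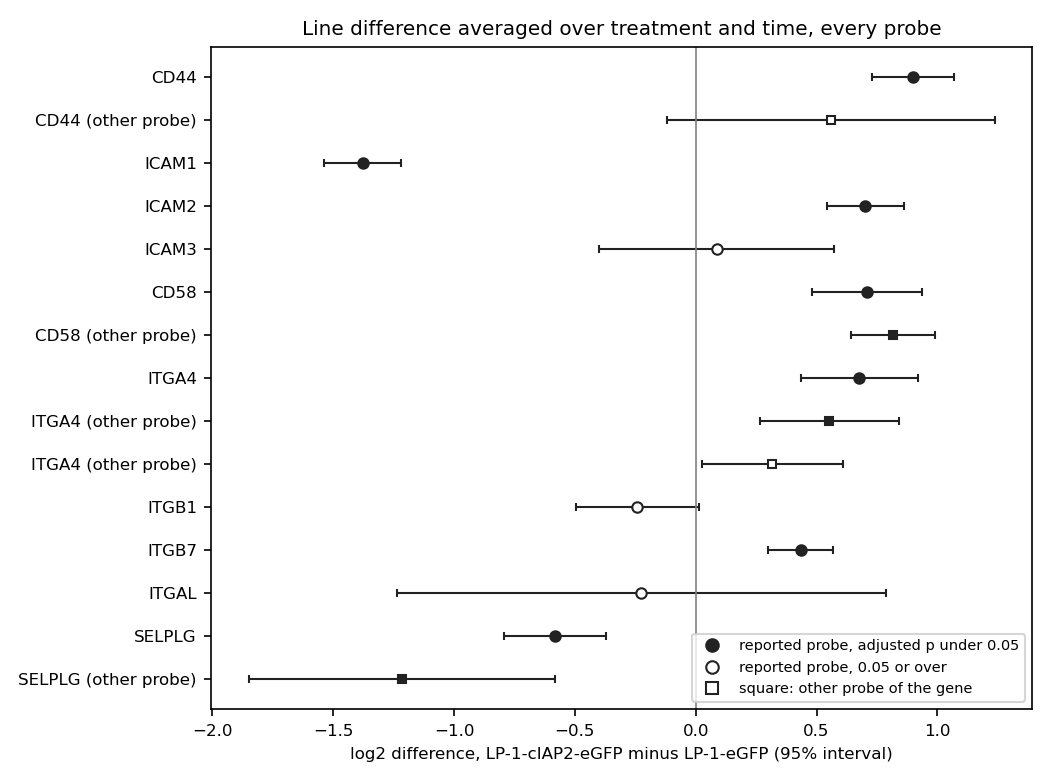
Log2 difference between the lines, LP-1-cIAP2-eGFP minus LP-1-eGFP by label (horizontal axis), for every probe of the 10 genes, averaged over treatment and time. Bars are 95% intervals, circles are reported probes, squares are other probes, and filled symbols passed an adjusted p of 0.05. ICAM1 lies farthest below 0 among the reported probes, at -1.38, and CD44 farthest above it, at 0.90.

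The 2 slides of the experiment each held 8 arrays, and 6 of the 8 arrays labelled LP-1-cIAP2-eGFP were on slide 1 and 6 of those labelled LP-1-eGFP on slide 2. With the slide as a block, all 7 differences stayed past the test, with CD44 at 0.87, ICAM1 at -1.36, ICAM2 at 0.68, CD58 at 0.74, ITGA4 at 0.63, ITGB7 at 0.45 and SELPLG at -0.60. Within a slide, matched conditions gave CD44 differences from 0.77 to 1.16 and ICAM1 differences from -1.54 to -1.05 in 4 comparisons of 1 or 2 arrays a side. CD58 differed within slides by 0.88 to 1.15 in untreated cells and by 0.10 after 24 h of bortezomib, where the array that stood apart is included. Its second probe differed by 0.93 to 1.17 in untreated cells and by 0.52 after 24 h of bortezomib. Without the array that stood apart, the 7 line differences kept their calls, with CD44 at 0.92, ICAM1 at -1.40, ICAM2 at 0.72, CD58 at 0.80, ITGA4 at 0.73, ITGB7 at 0.44 and SELPLG at -0.54.

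Bortezomib at 24 h was then compared with untreated cells at the same time, averaged over the lines. Of the 10 genes, ITGA4, CD58, SELPLG, ITGB7 and ICAM2 fell and ITGB1 rose, while CD44, ICAM1, ICAM3 and ITGAL did not pass the test. The ICAM2 change was -0.40, was -0.65 with 75th percentile scaling, and lost its call with array weights (limma adjusted p = 0.1). Among all probes 34.8% were called, 15.1% as higher and 19.7% as lower. The median was -0.49 for the 10 genes and -0.09 for all probes. A lower level in every cell and loss of the transcript from some of the cells cannot be told apart in bulk RNA.

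ITGA4, the alpha subunit of the fibronectin and VCAM1 receptor, fell most. On the arrays labelled LP-1-eGFP its log2 signal was 10.24 and 10.38 in untreated cells at 24 h and 8.17 and 7.57 after bortezomib. On those labelled LP-1-cIAP2-eGFP it was 10.95 and 11.16 before and 8.27 and 8.72 after. Every treated array lay far below the untreated ones in both lines. The averaged change was -2.50 (SE 0.15, limma adjusted p = 2.26e-06), a 5.66-fold fall, and the other ITGA4 probes changed by -1.80 (limma adjusted p = 4.49e-05) and -1.84 (limma adjusted p = 4.27e-05). Without the array that stood apart, the averaged change was -2.39 for ITGA4, -0.81 for ITGB7, -0.37 for ICAM2, 0.56 for ITGB1, -0.80 for CD58 and -0.74 for SELPLG, and all 6 passed the test.

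The beta partners of ITGA4 moved in opposite directions. ITGB7 went from 18.02 and 18.02 to 17.03 and 17.22 on the arrays labelled LP-1-eGFP, and from 18.37 and 18.39 to 17.59 and 17.66 on those labelled LP-1-cIAP2-eGFP. No treated array reached the untreated ones, and the averaged change was -0.82 (SE 0.09, limma adjusted p = 5.20e-05). ITGB1 went from 8.53 and 8.47 to 9.33 and 8.87 on the arrays labelled LP-1-eGFP and from 8.58 and 8.12 to 9.09 and 8.87 on the others. Treated arrays lay above untreated ones in both lines, and the averaged change was 0.62 (SE 0.16, limma adjusted p = 0.0135). This ITGB1 call was lost with the slide as a block (0.48, limma adjusted p = 0.0532), with array weights (limma adjusted p = 0.179), and without LP-1-eGFP bortezomib 24 h replicate 1 (0.50, limma adjusted p = 0.0535) or LP-1-cIAP2-eGFP untreated 24 h replicate 2 (0.50, limma adjusted p = 0.0555).

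CD58 fell by 0.98 (SE 0.14, limma adjusted p = 4.78e-04), and its second probe gave a change of -0.99. In the line labelled LP-1-cIAP2-eGFP the change was -1.35 (limma adjusted p = 9.82e-04), and -0.99 (limma adjusted p = 5.68e-04) without the array that stood apart. In the control line the reported probe changed by -0.62 (limma adjusted p = 0.0585) and the second probe by -0.78 (limma adjusted p = 0.00567). Without the array that stood apart, the change of the reported probe in the control line passed the test at the same size (limma adjusted p = 0.0017), since the shared spread was smaller. The treated arrays lay below the untreated ones in both lines.

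SELPLG fell on the arrays labelled LP-1-cIAP2-eGFP from 13.34 and 13.20 to 11.71 and 12.04, a change of -1.40 (SE 0.19, limma adjusted p = 5.02e-04), or 2.63-fold. On the arrays labelled LP-1-eGFP the signals were 13.57 and 13.21 before and 13.24 and 13.04 after, a change of -0.25 (limma adjusted p = 0.433). The treated and untreated control arrays overlapped. Without the array that stood apart, the change in the first line was -1.23 (limma adjusted p = 0.00216). With array weights it kept its size but lost the call (limma adjusted p = 0.0614). ICAM2 had -0.67 (limma adjusted p = 0.00617) in the line labelled LP-1-cIAP2-eGFP, -0.61 there without that array (limma adjusted p = 0.0169), and -0.13 (limma adjusted p = 0.644) in the control.

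In each line on its own, 5 of the 10 genes fell in the line labelled LP-1-cIAP2-eGFP (17.5% of all probes fell there) and 2, ITGA4 and ITGB7, in the control (11.2% of all probes). In the first line the falls of ITGB7, SELPLG and ICAM2 lost their calls with array weights (limma adjusted p = 0.0713, 0.0614 and 0.186), and that of ITGB7 also with 75th percentile scaling (-0.47, limma adjusted p = 0.13). The difference between the 2 responses was tested directly, and none of the 10 passed by limma's adjusted p, as only 0.0712% of all probes did. SELPLG had the smallest unadjusted p of the difference, at -1.14 (SE 0.27, 95% interval -1.74 to -0.55, limma adjusted p = 0.289), and SELPLG, CD58 and ICAM2 were the 3 with an unadjusted limma p under 0.05. The difference was -0.73 for CD58 (95% interval -1.37 to -0.08) and -0.55 for ICAM2 (SE 0.20). With replicate 2 of LP-1-cIAP2-eGFP bortezomib 24 h left out, which leaves the array that stood apart as the only one of its condition, SELPLG (-1.31, limma adjusted p = 0.00668), CD58 (-1.08, limma adjusted p = 0.00167) and ICAM2 (-0.61, limma adjusted p = 0.0479) passed. With replicate 1, the array that stood apart, left out none did, and the CD58 difference shrank to -0.37 (limma adjusted p = 0.590).

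CD44 and ICAM1, which separated the lines, had small changes with bortezomib. At 24 h CD44 had an averaged change of 0.18 (SE 0.11, limma adjusted p = 0.242) and ICAM1 of 0.11 (SE 0.10, limma adjusted p = 0.428), and both signs turned when arrays were scaled to their 75th percentile (-0.06 and -0.07). The 95% intervals of the difference in response between the lines were -0.40 to 0.55 for CD44 and -0.54 to 0.37 for ICAM1. ICAM3 had a change of 0.65 (limma adjusted p = 0.133) and ITGAL of -0.59 (limma adjusted p = 0.525), the latter with 1 array at 3.34 that was not above background. That was the array that stood apart, and without it ITGAL had 0.20.

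**Figure D3:**
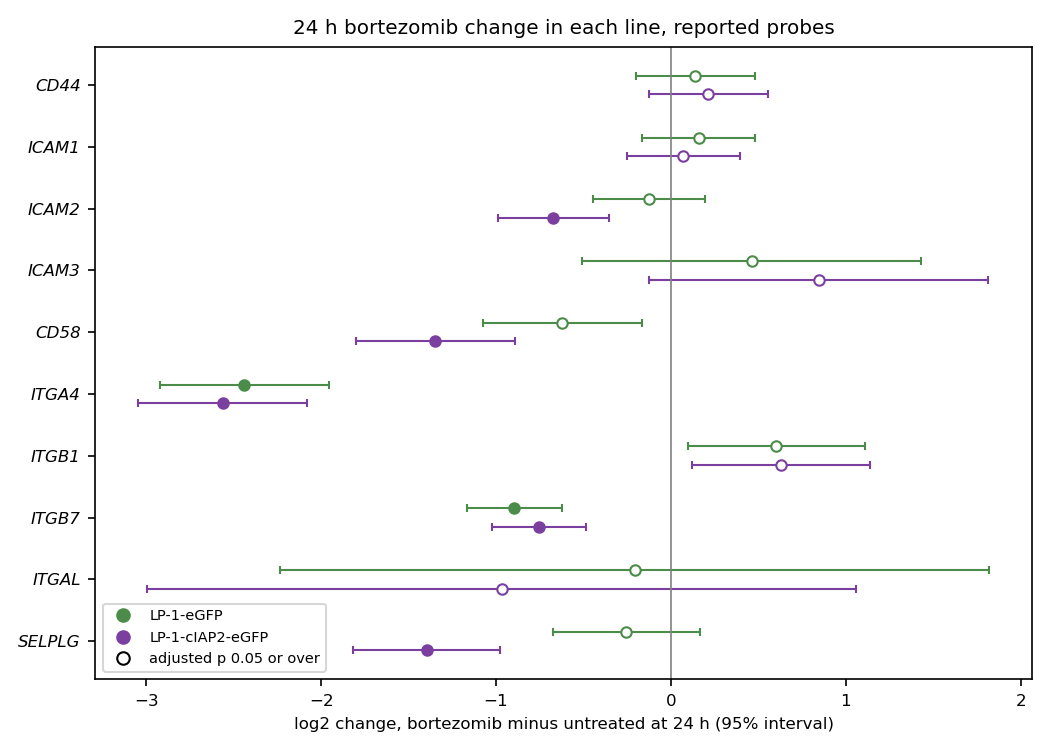
Log2 change with bortezomib at 24 h against untreated cells (horizontal axis) of the reported probe of each of the 10 genes, in LP-1-eGFP (green) and LP-1-cIAP2-eGFP (purple) by label. Bars are 95% intervals from 2 arrays a condition with the spread shared over all conditions, and open points did not pass an adjusted p of 0.05. ITGA4 fell by a similar amount in both lines, at -2.44 and -2.56, while SELPLG had -0.25 and -1.40.

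At 6 h of bortezomib no gene of the 10 passed by limma's adjusted p, where 5.93% of all probes did, and 3 (CD44, ICAM2 and ITGA4) had an unadjusted p under 0.05. ICAM2 came closest, with a change of -0.38 (SE 0.10, limma adjusted p = 0.0579), and the 6 h arrays were 13.23 and 13.17 against 13.53 and 13.67 in the control and 14.08 and 13.92 against 14.40 and 14.33 in the other line. ITGA4 had a change of -0.43 (limma adjusted p = 0.169). The response difference between the lines at 6 h was called for none of the 10 and for 0.00297% of all probes, and no gene of the 10 had an unadjusted p under 0.05 there. Between 6 h and 24 h in untreated cells none of the 10 passed, 0.0089% of all probes did, and SELPLG alone had an unadjusted p under 0.05 (0.56, limma adjusted p = 0.506).

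The wider adhesion machinery was read from 6 lists. The median line difference of a list lay between -0.25, for the enzymes that modify PSGL-1, and 0.03, and the median 24 h change with bortezomib between -0.69, again for those enzymes, and 0.18 for the linkers, proteases and splicing factors of CD44. Read against the 16.1% of all probes called between the lines and the 34.8% called with bortezomib at 24 h, the shares of tested genes called were 41.2% and 47.1% for the other integrin subunits, 48% and 56% for activation and adaptor genes, 18.2% in both comparisons for ligands and counter-receptors, 20% and 60% for the CD44 linkers, 50% and 60% for the PSGL-1 enzymes, and 40% and 50% for other adhesion molecules. The shares of genes come from lists of 10 to 25 tested genes, 1 probe each. That probe was the tested one with the highest mean signal, whereas the shares of all probes include every probe tested. The shares are therefore not like for like, and the same holds for the 10 genes. With normexp background correction the line differences of several named genes kept their call but shrank by more than 1.5-fold. ITGAX shrank to -2.48, PARVB to -1.39, PTK2 to -0.66, B4GALT1 to -0.40, CD9 to 0.73 and ESRP2 to 0.24. Their sizes below depend on the background correction. Among 17 tested of 22 other integrin subunits, 4 were higher and 3 lower on the arrays labelled LP-1-cIAP2-eGFP, and 3 rose and 5 fell with bortezomib at 24 h. ITGAX, the alpha subunit of a complement receptor of myeloid cells, was lower on the arrays labelled LP-1-cIAP2-eGFP, with signals from 8.15 to 11.56 on the control arrays and from 3.90 to 7.31 on the others, of which 3 of 8 were well above background. Its fitted difference was -3.97 (limma adjusted p = 4.16e-06), from -4.12 to -2.48 over the alternatives, and its fitted change with bortezomib was 2.39 (limma adjusted p = 3.60e-04), but both rest in part on signals not well above background. ITGAX also passed the filter on low signal through control arrays alone, so its line p-value is not independent of the filter. ITGA8, an integrin subunit that binds RGD-containing ligands, was higher by 2.32 (limma adjusted p = 1.72e-05). ITGB5, a partner of ITGAV, fell with bortezomib by 2.92 on the log2 scale (limma adjusted p = 4.32e-07).

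Of 11 tested ligands and counter-receptors, 1 was higher and 1 lower between the lines, and 1 rose and 1 fell with bortezomib. SPP1 encodes osteopontin, which is secreted and binds both CD44 and integrins. In untreated cells at 6 h its signals were 11.31 and 11.39 on the arrays labelled LP-1-cIAP2-eGFP and 5.89 and 6.05 on the control arrays. No control array in any condition came above 8.57, and every array of the other line did. The averaged difference was 4.56 (SE 0.09, limma adjusted p = 5.34e-09), or 23.6-fold. SPP1 was also the gene of this list that rose with bortezomib at 24 h (1.42 averaged over the lines, limma adjusted p = 1.99e-05). The rise was 2.79 in the control line and 0.05 in the other, and this difference between the responses passed the test (-2.74, limma adjusted p = 0.0106). It was -2.74 (limma adjusted p = 0.0133) without the array that stood apart and -1.58 (limma adjusted p = 0.013) with normexp. The call was lost with array weights (-2.74, limma adjusted p = 0.594) and without LP-1-cIAP2-eGFP untreated 24 h replicate 2 (-2.77, limma adjusted p = 0.061). ICAM5 was the gene called lower between the lines and with bortezomib (-0.64, limma adjusted p = 0.0202), though neither call held with the slide as a block (limma adjusted p = 0.0874 and 0.0803) or with array weights (limma adjusted p = 0.0536 and 0.214), and the bortezomib call was lost in 3 of the 16 fits that left out 1 array, namely LP-1-eGFP bortezomib 24 h replicate 1, LP-1-cIAP2-eGFP untreated 24 h replicate 2 and LP-1-eGFP untreated 24 h replicate 2 (-0.59 to -0.48). VCAM1, MADCAM1 and FN1, ligands of the ITGA4 integrins, were well above background on 9, 5 and 3 of 16 arrays.

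Among 25 tested genes of integrin activation and adaptors, 5 were higher and 7 lower between the lines, and 6 rose and 8 fell with bortezomib. RASGRP2, which activates the small GTPase Rap1 upstream of integrins, fell with bortezomib by 3.76 on the log2 scale (limma adjusted p = 2.52e-05) and PTK2B, the adhesion kinase Pyk2, fell 8.59-fold (limma adjusted p = 8.23e-07). PTK2, the focal adhesion kinase, was well above background on all 8 control arrays and on none of the others, which makes it at least 2.08-fold lower there (limma adjusted p = 0.00253), a bound computed against the lowest signal well above background on each array. The bound holds for this background handling only, since the difference was smaller than it with normexp. PTK2 passed the filter on low signal through control arrays alone, so its line p-value is not independent of the filter. PARVB, a focal adhesion adaptor, was lower by 2.10 on the log2 scale (difference -2.10, limma adjusted p = 0.00576), and by 1.89 (limma adjusted p = 0.053) with the slide as a block.

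PSGL-1 needs glycosylation and sulfation to bind selectins. Of the 10 genes on that list, all tested, 2 were higher and 3 lower between the lines, and 6 fell and none rose with bortezomib at 24 h by limma's adjusted p. TPST2, a tyrosine sulfotransferase, fell by 1.70 on the log2 scale (limma adjusted p = 4.12e-06) and ST3GAL6, a sialyltransferase, by 1.67 (limma adjusted p = 3.56e-05). Between the lines, ST3GAL6 was higher (0.99, limma adjusted p = 2.98e-04) and B4GALT1, a galactosyltransferase, was lower (-1.29, limma adjusted p = 0.0219). The B4GALT1 probe was dim, with 14 of 16 arrays well above background, and its call was lost with the slide as a block (-1.33, limma adjusted p = 0.0885) and in 8 of the 16 fits that left out 1 array.

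Of 10 linkers, proteases and splicing factors of CD44, 2 were higher and none lower between the lines by limma's adjusted p, namely ESRP2, a splicing factor of CD44 (0.43, limma adjusted p = 0.00939), and MSN, which ties CD44 to actin (0.33, limma adjusted p = 0.0117). The ESRP2 call was lost on untreated arrays alone (0.35, limma adjusted p = 0.0896). The MSN call was lost with 75th percentile scaling, normexp and the slide block (0.33, 0.21 and 0.34, limma adjusted p = 0.106, 0.486 and 0.0577). With bortezomib 4 rose and 2 fell. ADAM17, a sheddase that cleaves adhesion molecules, rose by 1.60 (limma adjusted p = 2.24e-06) and EZR, another actin linker, by 0.86 (limma adjusted p = 3.11e-05).

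Of 20 tested other adhesion molecules of lymphoid and plasma cells, 5 were higher and 3 lower between the lines, and 1 rose and 9 fell with bortezomib. PECAM1, a homophilic adhesion molecule, fell by 4.12 on the log2 scale (limma adjusted p = 1.09e-06) and CD81, a tetraspanin, by 3.40 (limma adjusted p = 1.89e-07). NECTIN2, a ligand of NK cell receptors, was lower on the arrays labelled LP-1-cIAP2-eGFP (-2.08, limma adjusted p = 1.27e-05). CD9, another tetraspanin, was higher by a fitted 2.46 (limma adjusted p = 5.50e-04), from 0.73 to 2.87 over the alternatives, with 5 of 8 and 1 of 8 arrays well above background. In untreated cells, where it was so on 3 arrays of that line and on no control array, CD9 was at least 3.18-fold higher (limma adjusted p = 0.01). This bound was computed with the main background handling, and the averaged CD9 difference shrank to 0.73 with normexp. CD9 passed the filter on low signal only through arrays labelled LP-1-cIAP2-eGFP, so its line p-values are not independent of the filter.

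The plasma cell markers moved with bortezomib as well, all 7 falling at 24 h with a median of -1.82. SDC1, the syndecan CD138 that anchors plasma cells to matrix, fell by 2.46 on the log2 scale (limma adjusted p = 8.32e-07) and MZB1 fell by 2.01 (limma adjusted p = 5.48e-06), and SDC1 was higher (1.42, limma adjusted p = 5.10e-06) and CD38 lower (-0.55, limma adjusted p = 0.00279) on the arrays labelled LP-1-cIAP2-eGFP. On untreated arrays alone the CD38 difference was -0.43 and not called (limma adjusted p = 0.125). The summed signal of the 7 was 113232 and 123471 on the bortezomib 24 h arrays of that line and 359842 and 329099 on its untreated 24 h arrays. In the control line the sums were 110227 and 115877 against 370232 and 344472. The stromal gene COL1A1, near background, changed by -1.22 (limma adjusted p = 0.0487), a call that was lost in 20 of 24 alternatives (-1.62 to -0.36). The part of these shifts in the falls of ITGA4, ITGB7, CD58 and SELPLG was not tested.

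**Figure D4:**
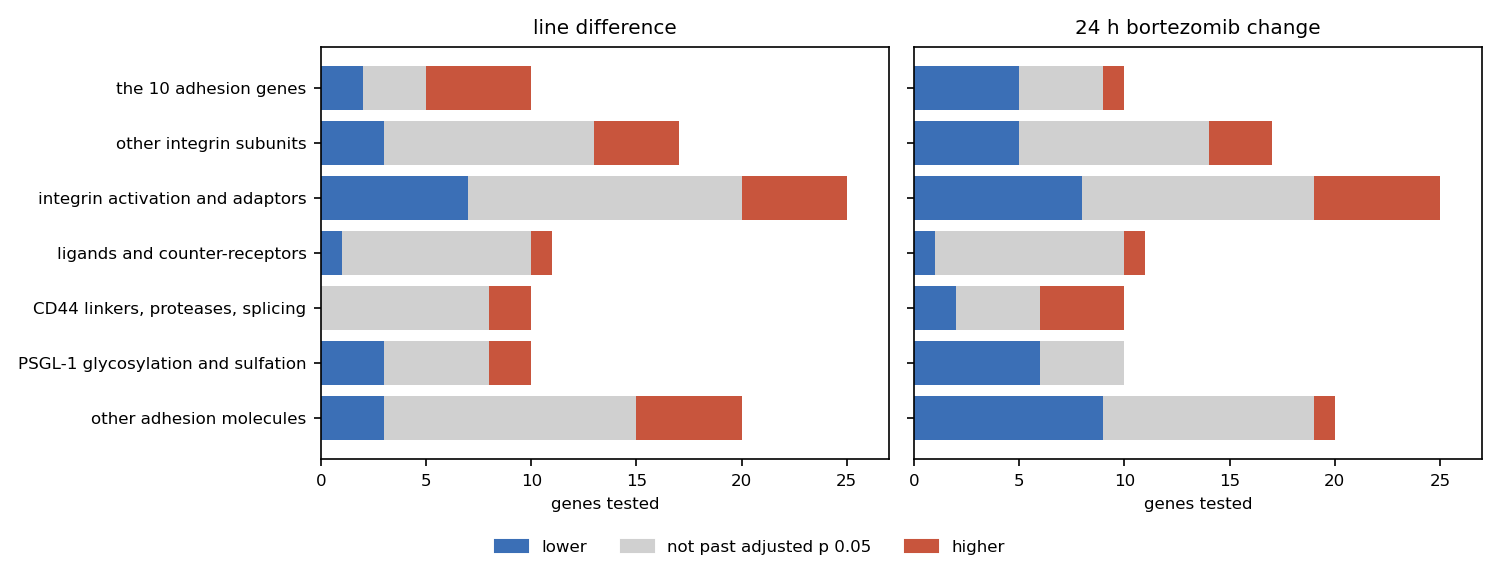
Number of genes tested (horizontal axis) in each adhesion list that were lower (blue), higher (red) or not past an adjusted p of 0.05 (grey), for the line difference (left) and the 24 h bortezomib change (right). Of the 10 adhesion genes 5 were higher and 2 lower between the lines, and with bortezomib 9 of 20 other adhesion molecules fell and 1 rose. Of all probes, 16.1% were called between the lines and 34.8% with bortezomib.

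The genes whose profile over the 8 conditions was nearest to that of CD44 were NBPF6, DOCK5 and WDR33, among 9677 genes compared. Their centred condition means differed from those of CD44 by 0.0995, 0.111 and 0.114 log2 units on average. The nearest to ICAM1 were SLC25A25, SLC2A6 and LASP1, at 0.109, 0.127 and 0.130. SLC2A6, a sugar transporter, had a line difference of -1.48.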

How the data were processed

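Total RNA of 16 LP-1 cultures was hybridised to 1-colour Agilent human oligonucleotide arrays. The deposited intensity values come from Agilent Feature Extraction, which per the file headers had already subtracted background and marked outlier spots. A further table of log2 values, which the authors had normalized and centred per probe, served as an alternative (each column correlated at 0.997 or more with its own array).

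Control and outlier spots were left out, log2 intensities were averaged per probe and quantile normalized, and a probe was kept where both replicates of any condition rose well above background (33731 probes). Outlier spots left single arrays without a value for some probes, so between 33715 and 33731 probes entered each test. One mean per condition was fitted with limma 3.58.1 in R 4.3.3 (lmFit, contrasts.fit and eBayes), with Benjamini-Hochberg adjustment over all probes. The script was tested on simulated data. Replicates are biological by the study's account, and how far separate their cultures were is not given in the sources used here, so p-values measure the spread between these arrays. Probes were named through their RefSeq accessions, which matched a symbol for 28174 of 50599 probes.

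The 10 genes and the lists were chosen with earlier results of these data known. From each list the text names the 2 genes with the largest called line difference and the 2 with the largest called 24 h bortezomib change, and for CD44 and ICAM1 the 3 nearest profiles by mean absolute difference of condition means after centring. BIRC3, the partner and neighbour genes and the motifs were added after the data had been seen. Alternatives covered scaling, background correction, the authors' values, filters, replicate and slide blocks, array weights, averaged probes, untreated arrays alone, a comparison of 2 groups of 8 arrays, and leaving out each array. The result of 1 marker gene is not reported here.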

Additional observations from a re-analysis of the deposited data

Results flagged for a closer look

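SPP1 was the 1 listed gene whose 24 h response to bortezomib differed between the lines by a direct test. Its signal on the arrays labelled LP-1-eGFP went from 5.45 and 6.03 in untreated cells to 8.57 and 8.50, a change of 2.79 (limma adjusted p = 1.85e-05). On the arrays labelled LP-1-cIAP2-eGFP it was 11.08 and 11.02 before and 11.09 and 11.11 after, a change of 0.05 (limma adjusted p = 0.862). The difference between the responses was -2.74 (limma adjusted p = 0.0106). Over 25 alternatives it ranged from -3.03 to -1.58, and it lost the call in 2 of them, with array weights (limma adjusted p = 0.594) and without LP-1-cIAP2-eGFP untreated 24 h replicate 2 (limma adjusted p = 0.061).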

How the results depend on the processing

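Of 1746 recomputed values of the 10 genes, 1703 kept their direction and their side of the threshold, 12 lost a call, 31 gained one and no called value reversed, while 61 values that were not called changed sign. Scaling to the 75th percentile moved the median of all probes from -0.02 to 0.08 for the lines and from -0.09 to 0.13 for bortezomib at 24 h, and it ended the ITGB7 call between the lines (0.34, limma adjusted p = 0.0561) and after bortezomib in the line labelled LP-1-cIAP2-eGFP (-0.47, limma adjusted p = 0.130). Normexp background correction ended that of CD58 between the lines (0.47, limma adjusted p = 0.295). Array weights ended the 24 h bortezomib calls of ICAM2 and ITGB1. Values that kept their call but moved by more than 1.5-fold were the averaged 24 h change of ICAM2 with 75th percentile scaling (-0.65), the CD58 change in the line labelled LP-1-cIAP2-eGFP with normexp (-2.11), and, with averaged probes, the SELPLG line difference (-0.90), its value after 24 h of bortezomib (-2.10) and its change in that line (-2.14). The SELPLG averages include its second probe, which read 5.67 on the array that stood apart and 7.98 on its replicate. The causes were not tested.

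Among all probes, 5428 differed between the lines, 11753 with bortezomib at 24 h and 1999 at 6 h, 24 in response at 24 h, 3 with time and 799 by the stricter limits. The line count became 3104 with the slide as a block and 3550 on untreated arrays alone. The stricter limits gave 384 probes where all arrays had to be well above background and 438 with the slide as a block. The 24 h count became 7835 with array weights. The 6 h count became 1069 with no filter, 3059 with the all-array filter and 6349 with array weights, and of the 10 genes 2, 4 and 1 were called at 6 h with the all-array filter, array weights and averaged probes. The response count became 9 with 75th percentile scaling, with the authors' values and with the slide block, 71 with normexp, 80 with the all-array filter and 0 with array weights. The time count became 0 with 75th percentile scaling, no filter and the slide block, 1 with normexp, 10 with the all-array filter and 21 with array weights. Leaving out each array in turn gave 4043 to 12301 probes for the lines, 9644 to 18040 at 24 h, 871 to 4386 at 6 h, 0 to 9338 for the response, 0 to 17 for time and 575 to 1069 by the stricter limits. Of the 10 genes, leaving out each array gave 7 between the lines, 5 to 7 at 24 h, 0 to 2 at 6 h and 0 to 3 for the response. The highest counts for the lines, the 24 h change and the response came without LP-1-cIAP2-eGFP bortezomib 24 h replicate 2, which leaves the array that stood apart alone in its condition, its spread taken from the other conditions. That setting also called ITGAL at 24 h (-1.37, limma adjusted p = 0.0322), and ICAM3 was called at 24 h (0.65, limma adjusted p = 0.0373) without either untreated 6 h array of that line.

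With the replicate number as a block, 15 probes differed in response and the counts for the 10 genes did not change. Arrays that share a number share only that: their deviations correlated at -0.11 to 0.24 over 28 pairs of conditions, with 7 above 0.1. The dim probe of ITGAL limits what can be said of this gene. For the listed genes named and the line difference after 24 h of bortezomib, 1076 values were recomputed after the data had been seen: 1009 kept their direction and side of the threshold, 66 lost a call, 1 gained one and none reversed. The ITGB7 line difference after 24 h of bortezomib lost its call in 19 of 25 alternatives, and the COL1A1 change with bortezomib in 20 of 24.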
